A study of Mus musculus with 4 samples.

Results

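The CCAAT/enhancer binding proteins (C/EBP) are a family of transcription factors that drive myeloid differentiation of hematopoietic progenitors, and forced expression of *Cebpa* or *Cebpb* turns B lineage cells into macrophages. The family was examined here in *Ebf1*-/- FL HPCs, progenitors that lack the B lineage factor EBF1. The members were *Cebpa*, *Cebpb*, *Cebpd*, *Cebpe*, *Cebpg*, *Cebpz* and *Ddit3*, and their probes were found by gene name, with no measured value. Each of the 7 genes had 1 probe, printed as 1 spot, so that 7 of the 39429 probes of the array belong to the family. All 7 were among the 23731 probes tested.

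RNA came from 4 samples of lineage-negative (Lin-) fetal liver cells of *Ebf1*-/- embryos, 2 infected with the EMPTY retrovirus (MDH1-PGK-GFP) and 2 with the *Mir195* retrovirus (MDH1-PGK-GFP-Mir195). Both groups therefore shared the *Ebf1* deletion, the GFP vector and the fetal liver origin. The general culture was 7 days on OP9 stroma, a mouse line, with SCF, IL-7 and Flt3-ligand at 10 ng/mL each. The labels place the cells near the pro-B stage and do not say whether the samples of a virus came from separate embryos or cultures, so that the p-values measure the spread between these samples, which may be technical.

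The arrays carry a single dye and 44397 spots. Their signals at the 75th percentile were 902 to 1130, no spot was saturated, and 23658 to 24671 probes were well above background. The EMPTY arrays correlated at r = 0.996 across probes and the *Mir195* arrays at 0.987, while EMPTY 2 and *Mir195* 1 correlated at 0.997. *Mir195* 2 stood apart from the others, with r of 0.983 to 0.987. All 4 arrays lay on the same slide with the EMPTY arrays in the first positions, so slide position and virus cannot be told apart. Of 6 lymphoid progenitor markers all were well above background on all 4 arrays, and of 12 early B lineage markers with a probe 10 were. Values are given as the log2 signal less the 75th percentile of its array, and differences are *Mir195* minus EMPTY.

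C/EBPα, C/EBPβ, C/EBPδ and C/EBPε bind DNA as dimers through a basic leucine zipper (bZIP) and activate transcription. C/EBPγ and the *Ddit3* product CHOP dimerize with them through the same zipper, and both are known mainly as partners that restrain the activators or redirect them to other sites. CHOP is induced when ATF4 is translated in the integrated stress response. *Cebpz* encodes a CCAAT-box binding protein without a bZIP domain that is related to factors of ribosome assembly.

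The *Mir195* insert of the virus was cloned from a human leukemia line. The mouse mature miRNA of that name is shown beside 3 others with the same seed, because the shared seed (bases 2 to 8, in capitals) is what these miRNAs read on a target. The sequences are those of RefSeq. Sites of this seed in the members were not analysed here.

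mmu-miR-195a-5p: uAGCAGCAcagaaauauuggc

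mmu-miR-497a-5p: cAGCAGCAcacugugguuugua

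mmu-miR-16-5p: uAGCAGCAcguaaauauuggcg

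mmu-miR-15a-5p: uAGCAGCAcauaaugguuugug

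RefSeq promoter sequences (GRCm38.p6) were at hand for 4 of the 7 members. Those of *Ddit3*, the member whose arrays separated by virus, and of *Cebpg*, the member with the widest spread over the arrays among those well above background on all of them, are shown over the 250 bases before the start. Capitals mark the letters CCAAT on either strand (ATTGG when read on the other strand) and, in *Ddit3*, the AP-1 letters TGACTCA. The *Ddit3* window is chr10:127290543-127290792 on the plus strand, and the *Cebpg* window is chr7:35056567-35056816 on the minus strand.

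Ddit3: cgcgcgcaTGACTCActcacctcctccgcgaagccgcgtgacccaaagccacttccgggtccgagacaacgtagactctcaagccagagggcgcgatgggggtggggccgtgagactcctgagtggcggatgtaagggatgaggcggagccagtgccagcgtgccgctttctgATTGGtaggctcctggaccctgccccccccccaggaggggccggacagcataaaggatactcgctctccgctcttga

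Cebpg: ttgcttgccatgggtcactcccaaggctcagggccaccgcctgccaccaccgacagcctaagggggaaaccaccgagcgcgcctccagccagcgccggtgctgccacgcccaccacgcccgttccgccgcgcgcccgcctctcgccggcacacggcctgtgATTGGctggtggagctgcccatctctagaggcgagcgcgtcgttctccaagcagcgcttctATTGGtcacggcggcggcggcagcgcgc

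*Ddit3* held the CCAAT letters at -77 to -73 and TGACTCA at -242 to -236 from its start. *Cebpg* held CCAAT letters at -89 to -85 and again at -28 to -24. Of 32851 mouse promoter windows of 250 bases, 33.8% held CCAAT and 4.46% held TGACTCA on either strand, so that the first is common. The other windows at hand, those of *Cebpa* and *Cebpb*, held no CCAAT. *Cebpb* instead held GCAAT, a C/EBP half-site found in 23.1% of windows, at -57 to -53, and the ATF/CREB half-site TGACG, found in 17.8%, at 3 positions, the middle of which shares its first base with the end of GCAAT. *Cebpa* held TTGCG, a C/EBP core found in 14.5% of windows, at -185 to -181, and TATAAA, found in 12.4%, at -30 to -25. None of the 4 windows held TTGCGCAA, the full C/EBP palindrome (0.164% of windows), or TGATGCAA, the CHOP-ATF4 composite (0.791%). The 4 windows were rich in G and C, with 64.8% to 81.6% beside a median of 52.4% over all windows. These are matches of letters and not sites of measured binding. Bases outside the 250 of each window were not searched, so letters absent here may lie further from the start.

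With *Mir195*, no member of the family passed the test. Of the 7 probes, 0 reached an adjusted p of 0.05 in limma, beside 0% of all 23731 probes, and the lowest adjusted p of a member was 0.711, for *Ddit3*. At an unadjusted p of 0.05 limma also called 0 of 7, beside 8.34% of all probes (1979 of 23731). The methods of the paper name a one-sample t-test and do not say that array ratios entered it. Here it was made on the log2 ratios of same-numbered arrays, although the labels do not call these pairs. This t-test put 2 of the 7, *Cebpd* and *Cebpg*, past its threshold before adjustment, beside 4.78% of all probes, and neither after it. In both genes the 2 ratios were almost equal, at -0.18 and -0.17 for *Cebpd* and at -0.19 and -0.19 for *Cebpg*. For a single gene, exact permutation of 2 arrays against 2 gives a p of 0.333 at the lowest.

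Means were lower with *Mir195* for 5 members and higher for 2, *Cebpa* and *Cebpb*, of which *Cebpa* turned lower with quantile normalization, median scaling and the authors' table, and *Cebpb* with median scaling. The median log2 fold change of the family was -0.18, beside 0.01 for all tested probes. *Mir195* 2 gave the lowest value of 6 of the 7 members, beside 34% of all tested probes, and EMPTY 1 the highest of 4, beside 17.7%. The members are read from the same 4 RNA samples and are not independent of each other. In these bulk samples, fewer cells of a type and less RNA per cell cannot be told apart.

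**Figure D1:**
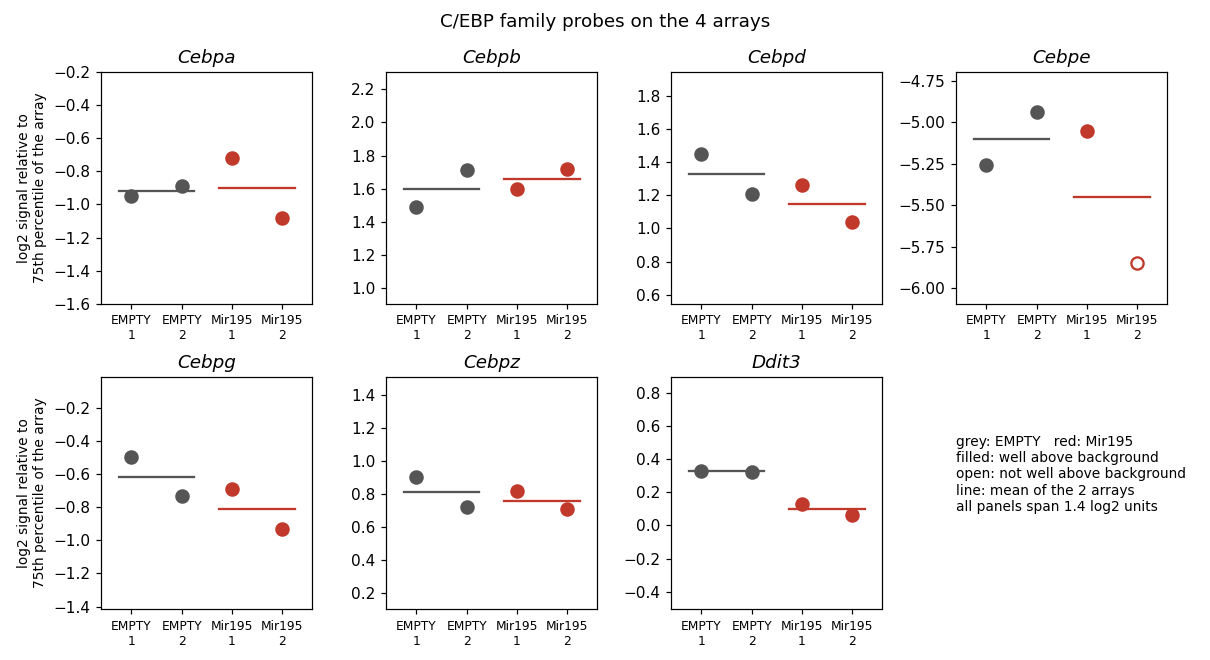
Log2 signal of each of the 7 family probes relative to the 75th percentile of its array (y axis) on the 2 EMPTY arrays (grey) and the 2 *Mir195* arrays (red), with lines at the means. All panels span the same number of log2 units. The arrays of the viruses overlap in 6 panels; both *Mir195* arrays lie below both EMPTY arrays for *Ddit3*, and the open symbol marks the array on which *Cebpe* was not well above background.

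*Cebpa* encodes C/EBPα, which takes progenitors from the multipotent to the granulocyte-monocyte stage. Its log2 signal was -0.95 and -0.89 with EMPTY and -0.72 and -1.08 with *Mir195*. The *Mir195* arrays thus lay on either side of both EMPTY arrays. The difference came to a log2 fold change of 0.03 (standard error, SE, 0.16, 95% interval -0.40 to 0.45, adjusted p = 0.985). Without *Mir195* replicate 1 it was -0.15, and without *Mir195* replicate 2 it was 0.20, so that its direction rested on a single array. The gene lies at chr7:35119293-35121928 (GRCm38.p6), 62726 bases from *Cebpg*, with 1 annotated gene, *Gm35611*, between them.

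*Cebpb* encodes C/EBPβ, the activator of emergency granulopoiesis and of macrophage genes. The log2 signals were 1.49 and 1.71 with EMPTY and 1.60 and 1.72 with *Mir195*. The 2 EMPTY arrays lay further apart than the means of the viruses did, with SD over the 2 arrays of a virus of 0.16 and 0.08. Its log2 fold change was 0.07 (SE 0.14, 95% interval -0.30 to 0.43, adjusted p = 0.948), and it ranged from -0.04 without EMPTY replicate 1 to 0.18 without EMPTY replicate 2. *Cebpb* lies at chr2:167688915-167690432.

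*Cebpd* encodes C/EBPδ, an acute-phase member induced by cytokines. With EMPTY its log2 signal was 1.45 and 1.21, and with *Mir195* it was 1.26 and 1.04. Both groups spread over a similar distance and shared part of their range, since *Mir195* 1 lay above EMPTY 2. The change came to -0.18 on the log2 scale (SE 0.16, 95% interval -0.59 to 0.23, adjusted p = 0.867). It was below 0 under all 14 alternatives, from -0.30 without EMPTY replicate 2 to -0.06 without EMPTY replicate 1. *Cebpd* lies at chr16:15887286-15889545.

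*Cebpe* encodes C/EBPε, which is required for the terminal stages of granulocytes and eosinophils, and its probe was the only one of the 7 near background. It was well above background on 3 of the 4 arrays and not on *Mir195* 2. The processed intensity was 29.4 and 33.6 with EMPTY and 27.2 and 16 with *Mir195*, with errors by the scanner software of 4.91, 4.65, 4.36 and 4.11. The spot exceeded its local background 1.9-fold to 2.39-fold. Of the 4 arrays, only *Mir195* 2 lay below the rest by more than these errors.

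On the log2 scale *Cebpe* was at -5.26 and -4.94 with EMPTY and at -5.05 and -5.85 with *Mir195*. The log2 fold change was -0.35 with a SE of 0.30, the largest of the family, a 95% interval of -1.14 to 0.44 and an adjusted p of 0.866. With the normexp background correction, the same spots gave -3.71 and -3.53 with EMPTY and -3.40 and -3.45 with *Mir195*. Under that correction both *Mir195* arrays were higher, and the log2 fold change was 0.20 (adjusted p = 0.437). Without *Mir195* replicate 2 it was 0.05, and without *Mir195* replicate 1 it was -0.75 (adjusted p = 0.113). A direction for *Cebpe* could therefore not be given at this signal. *Cebpe* lies at chr14:54710363-54712174.

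**Figure D2:**
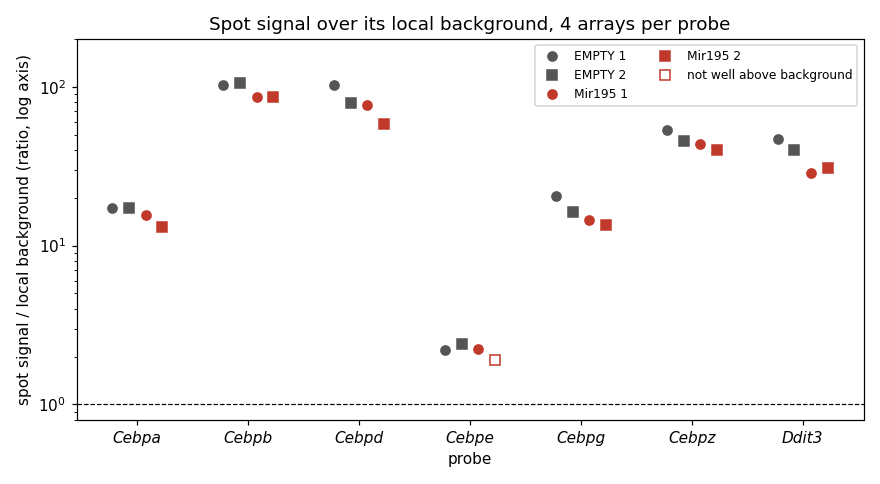
Mean spot signal divided by the local background of the same spot (y axis, log scale) for the 7 family probes (x axis) on the 4 arrays, with a dashed line where spot and background are equal. *Cebpe* lies between 1.9 and 2.39 on all arrays, while the other 6 probes lie at 13 or above; heights of different probes are not levels of the genes.

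*Cebpg* encodes C/EBPγ, a partner without a strong activation domain. EMPTY gave log2 signals of -0.50 and -0.73, and *Mir195* gave -0.69 and -0.93. *Mir195* 1 lay between the EMPTY arrays, and *Mir195* 2 lay below both. This gave a log2 fold change of -0.19 (SE 0.15, 95% interval -0.60 to 0.21, adjusted p = 0.848), with a range of -0.31 to -0.08 over the alternatives. Its distance between the highest and the lowest array, 0.42, was the widest among the 6 members that were well above background on all arrays. The gene lies at chr7:35046422-35056566.

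The genes whose centred profile over the 4 arrays was closest to that of *Cebpg*, of 21984 probes considered, were *Gm13476*, *Efnb1*, *Prrg4*, *Ssx2ip* and *Laptm5*, at root mean square distances of 0.0103 to 0.0198. *Efnb1* encodes an ephrin ligand, and *Laptm5* a lysosomal protein of hematopoietic cells. *Laptm5* was at 4.70 and 4.42 with EMPTY and at 4.51 and 4.25 with *Mir195*. Like *Cebpg*, these genes were highest on EMPTY 1 and lowest on *Mir195* 2. The likeness is a description over 4 arrays only.

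*Ddit3* was the member that separated by virus. The log2 signal stood at 0.33 and 0.32 with EMPTY and at 0.13 and 0.06 with *Mir195*. Both *Mir195* arrays were lower than both EMPTY arrays, and the arrays of a virus lay closer to each other than to those of the other. *Ddit3* thus differed by -0.23 on the log2 scale (1.17-fold lower, SE 0.12, 95% interval -0.53 to 0.07), which did not pass the test (adjusted p = 0.711). The difference ranged from -0.33 to -0.20 over 14 alternatives, and its lowest adjusted p among them was 0.328, with normexp. Such a separation was common. Of all tested probes, 37.8% did not overlap between the viruses, 14.4% with both *Mir195* arrays lower and 23.4% with both higher. The family's count of 1 of 7, lower on both, was near the 14.4%. *Ddit3* lies at chr10:127290793-127296291.

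*Cebpz* is the member outside the bZIP family, and its log2 signal was 0.90 and 0.72 with EMPTY and 0.82 and 0.71 with *Mir195*. The arrays of the viruses overlapped. Its log2 fold change was -0.05 (SE 0.13, 95% interval -0.39 to 0.30, adjusted p = 0.962), from -0.15 with median scaling to 0.04 without EMPTY replicate 1. *Cebpz* lies at chr17:78919003-78937070.

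**Figure D3:**
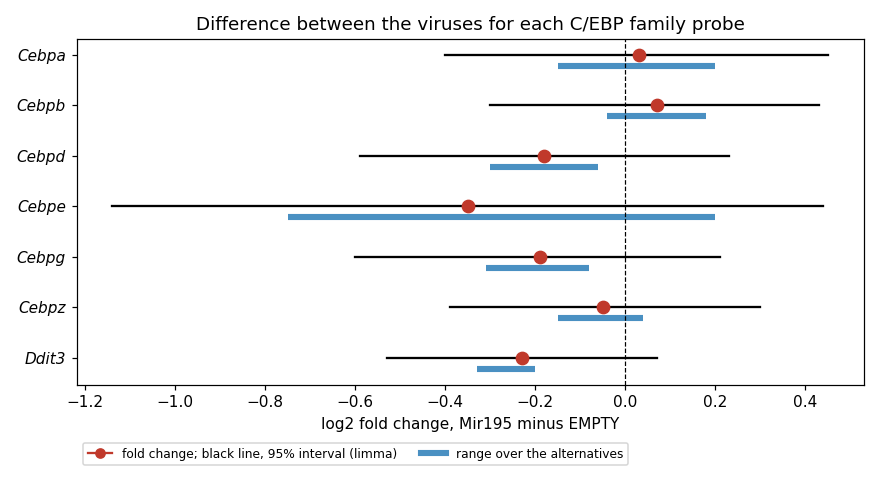
Log2 fold change of each family probe, *Mir195* minus EMPTY (x axis), as red points with the 95% interval of limma as black lines and the range over the alternatives as blue bars. All 7 intervals include 0; the blue bars of *Cebpd*, *Cebpg* and *Ddit3* lie below 0, and those of the other 4 cross it.

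Partners, cofactors and inhibitors of the family were examined as a list of 21 genes. Of 20 tested, 10 were higher and 10 lower with *Mir195*, and limma called 0 after adjustment and 1 at an unadjusted p of 0.05, *Batf3*, with a median log2 fold change of 0.00. *Batf3*, a bZIP factor of dendritic cell development, was at 0.83 and 0.49 with EMPTY and at -0.29 and -0.05 with *Mir195* (a difference of -0.83, SE 0.18, adjusted p = 0.53); it is named after its values were seen. *Atf4*, which dimerizes with C/EBP members and induces *Ddit3*, differed by -0.05 (log2, SE 0.11, adjusted p = 0.957). *Spi1*, which encodes the myeloid and B lineage factor PU.1, had -0.09 (adjusted p = 0.919). *Gfi1*, a repressor that opposes C/EBPα and PU.1 targets, was higher on both *Mir195* arrays by 0.17 (adjusted p = 0.836). No partner thus passed the test.

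The Tribbles pseudokinases encoded by *Trib1* and *Trib2* direct C/EBPα to degradation, and *Trib3* is a target and inhibitor of the ATF4-CHOP arm. For *Trib1* the log2 fold change was -0.06, for *Trib2* -0.19 with a SE of 0.64, and for *Trib3* -0.05 (adjusted p = 0.965, 0.97 and 0.957). *Trib2* was at -3.94 and -5.24 with EMPTY and at -5.50 and -4.05 with *Mir195*. The arrays of the same virus lay further apart than the means of the viruses did.

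*Mir195* 2 differed from the other 3 arrays for several of the partners, which are named after their values were seen. *Atf3* was at 0.20 on that array and at -1.83 to -1.07 on the others. *Fos* was at 3.71 beside 2.16 to 2.93, and *Klf4* at 1.74 beside -0.09 to 0.54. These transcripts are induced rapidly by many stimuli, and on *Mir195* 1 all 3 were at their lowest. Without *Mir195* replicate 1, limma called 904 probes, among them *Atf3* (log2 fold change 1.32, adjusted p = 0.0157) and *Klf4* (1.47, adjusted p = 0.0341), and no family member. *Mir195* 2 also had the highest summed signal of 12 stroma markers, 24.3 times the 75th percentile beside 18 to 22 on the other arrays. Of those, 8 were well above background on all arrays and *Pdgfra*, *Postn* and *Dcn* on none. Of the 8 tested, 7 had a higher mean with *Mir195* and 1, *Thy1*, a lower one (log2 fold change -0.59, adjusted p = 0.53 in limma). The *Mir195* arrays did not share these higher means, as only 1 gene, *Pdgfrb*, was higher on both. *Col1a1*, *Col1a2*, *Col3a1*, *Cxcl12*, *Kitl* and *Sparc* lay below both EMPTY arrays on *Mir195* 1 and above both on *Mir195* 2. *Thy1* was the largest part of the sum on the other arrays and was lowest on *Mir195* 2, at 2.79. *Sparc* was at 3.41 on that array beside 2.47 to 2.63, and *Cxcl12* at 1.35 beside 0.34 to 0.48. These genes of the 8 tested are named after their values were seen. The part of the stroma markers in the values of *Mir195* 2 was not tested.

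The myeloid targets of C/EBP factors comprised 22 genes, of which 15 were tested. Among these, 11 were higher and 4 lower with *Mir195*, with a median of 0.08 beside 0.01 for all tested genes, and limma called 0 after adjustment and 1, *Mpo*, at an unadjusted p of 0.05. *Mpo*, which encodes the myeloperoxidase of primary granules, was at 0.22 and 0.83 with EMPTY and at 1.35 and 1.15 with *Mir195*. Both *Mir195* arrays were higher, by 0.72 (SE 0.24), and the difference did not pass the test (adjusted p = 0.556). Leaving out EMPTY replicate 1 gave 0.41, and leaving out EMPTY replicate 2 gave 1.02. *Lyz2*, the lysozyme of macrophages, was at -2.01 and -1.39 with EMPTY and -1.46 and -0.62 with *Mir195* (log2 fold change 0.66, adjusted p = 0.75), which became 0.24 when *Mir195* replicate 2 was left out and 1.08 when *Mir195* replicate 1 was. *Elane*, the neutrophil elastase gene, had -0.10 (adjusted p = 0.914).

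*Csf3r*, the G-CSF receptor gene and a classic target of C/EBPα, had an outlier spot on *Mir195* 2 and was not tested. It was at 5.60, 5.94 and 5.90 on the other arrays. *Ctsg*, the cathepsin G gene, was the target called without *Mir195* replicate 1 (log2 fold change 1.59, adjusted p = 0.0154), and with all arrays it had 0.96 (adjusted p = 0.668); it is named after its values were seen. Of the 22 targets, 5 were well above background on no array, among them *S100a8* and *S100a9*, the calprotectin genes of mature neutrophils. Of 12 granulocyte and monocyte markers, 10 were well above background on all arrays, with a summed signal of 15.5 and 16.8 with EMPTY and 16.7 and 16.8 with *Mir195*. Of genes of later granulocyte stages, *Ltf*, *Lcn2*, *Camp* and *Ly6g*, named after their values were seen, were well above background on all 4 arrays, so that such genes were detected in part.

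The integrated stress response list holds 27 genes around *Ddit3* and *Atf4*, of which 25 were tested. Here 14 had a log2 fold change above 0 and 11 below it, with a median of 0.01; 0 passed after adjustment in limma and 1, *Stc2*, had an unadjusted p under 0.05. The arrays of the viruses did not overlap for 13, with *Mir195* above EMPTY for 5 and below it for 8, beside the shares of 37.8%, 23.4% and 14.4% over all probes given above. *Stc2*, which encodes the secreted glycoprotein stanniocalcin, was at -5.64 and -5.53 with EMPTY and at -4.82 and -4.35 with *Mir195* (SE of the difference 0.19, adjusted p = 0.53); it too is named after its values were seen. The median of the list was thus that of all tested genes.

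*Asns*, asparagine synthetase and a target of ATF4, had a log2 fold change of 0.15 (adjusted p = 0.891), and *Hspa5*, the chaperone BiP, had 0.04 (adjusted p = 0.959). *Ppp1r15a*, which encodes GADD34, the CHOP target that reverses the translational block, was at 2.72 and 2.91 with EMPTY and at 2.61 and 3.83 with *Mir195*. Its 2 *Mir195* arrays lay on either side of the EMPTY arrays, so that the log2 fold change of 0.40 (adjusted p = 0.891) became -0.21 without *Mir195* replicate 2 and 1.02 without *Mir195* replicate 1 (adjusted p = 0.0371). Among the 8 genes of the list that were, like *Ddit3*, lower on both *Mir195* arrays were *Ddit4*, *Sesn2* and *Herpud1*, named after their values were seen. *Ddit4*, which encodes an inhibitor of mTORC1 signalling, was at 4.63 and 4.57 with EMPTY and 4.49 and 4.14 with *Mir195* (adjusted p = 0.763). *Sesn2*, a sestrin gene, was at 1.20 and 1.06 beside 1.05 and 0.77 (adjusted p = 0.819), and *Herpud1*, of the disposal of misfolded proteins in the endoplasmic reticulum, at 4.28 and 4.26 beside 4.16 and 4.02 (adjusted p = 0.81). As for *Ddit3*, all 3 were lowest on *Mir195* 2, as were *Vldlr* and *Sdf2l1* of the 8. *Xbp1* (4.63 and 4.65 with *Mir195*) and *Eif2ak3* (-0.22 and -0.10) were lowest on *Mir195* 1 instead. The 5 genes of the list higher on both *Mir195* arrays, and so opposite to *Ddit3*, were *Chac1*, *Stc2*, *Hspa5*, *Slc3a2* and *Nars*. *Chac1* was at -0.30 and -0.41 with EMPTY and at -0.09 and 0.04 with *Mir195* (adjusted p = 0.606 in limma). Apart from *Hspa5*, these further genes are also named after their values were seen.

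For *Cebpz*, 20 genes of ribosome assembly served as the list, all tested. Of them 12 were higher and 8 lower, with a median of 0.01, and limma called 0 after adjustment and 1, *Noc3l*, at an unadjusted p of 0.05 (log2 fold change 0.52, adjusted p = 0.575, named after its values were seen). *Noc2l*, of the same family of nucleolar proteins, had -0.01 (adjusted p = 0.991), and *Ncl*, nucleolin, had 0.06 (adjusted p = 0.947).

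Adipocyte genes were included since C/EBPα, C/EBPβ and C/EBPδ also drive adipogenesis and OP9 stroma can form adipocytes. Of 14 genes 9 were tested, 4 higher and 5 lower, with a median of -0.04, and limma called 0 after adjustment and 1, *Scd1*, at an unadjusted p of 0.05 (log2 fold change -0.88, adjusted p = 0.53, named after its values were seen). *Pparg*, the adipogenic nuclear receptor gene, had 0.16 (adjusted p = 0.91), and *Fabp4*, a fatty acid binding protein of adipocytes, had -0.08 (adjusted p = 0.922), a sign that turned with normexp (0.19). Genes that mark the mature adipocyte were detected in part. *Plin1*, *Lep*, *Slc2a4* and *Cidec* were well above background on no array, while *Adipoq* and *Retn* were among the 8 genes of the list that were on all 4. The summed signal of the list was 1.91 and 2.1 with EMPTY and 2.02 and 2.09 with *Mir195*, so that it overlapped between the viruses. The largest part of that sum was *Agpat2*, at 0.05 to 0.37 on the log2 scale and named after its values were seen.

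**Figure D4:**
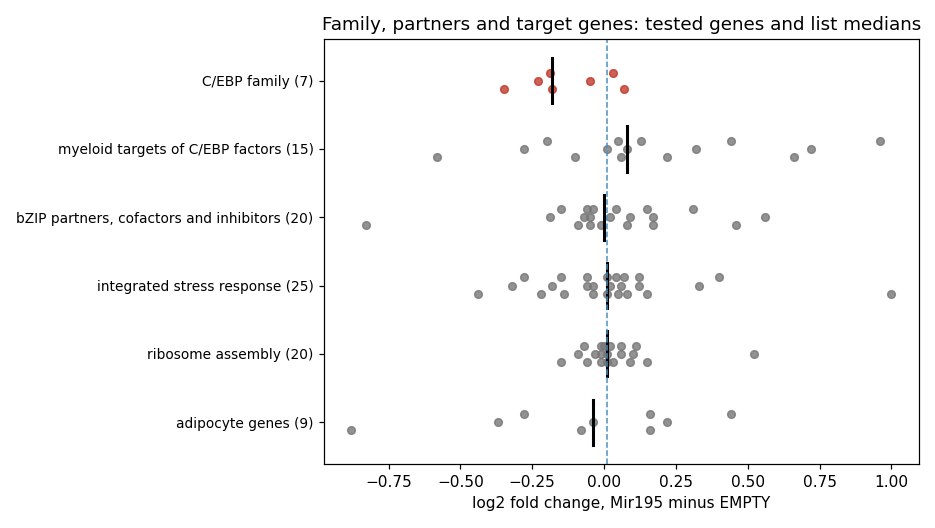
Log2 fold changes, *Mir195* minus EMPTY (x axis), of the 7 family members (red) and of the tested genes of 5 lists (grey, number of genes in brackets), each point a gene, with black bars at the medians and a dashed line at the median of all tested genes (0.01). Medians lie between -0.18 for the family and 0.08 for the myeloid targets, and no gene shown passed the adjusted threshold.

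Mast cell and basophil markers, eosinophil markers and erythroid markers were examined because C/EBPα and C/EBPε also act in these lineages or because fetal liver holds them. Of 8 mast cell and basophil markers, 2 were well above background on all arrays, and *Mcpt8*, *Fcer1a*, *Ms4a2* and *Gata2* on none. Their summed signal was 0.968 and 1.17 with EMPTY and 1.07 and 0.887 with *Mir195*. That of 5 eosinophil markers was 1.4 and 1.14 with EMPTY and 0.963 and 1.07 with *Mir195*. This sum rested mainly on *Siglecf*, at 0.41 and 0.08 with EMPTY and -0.17 and -0.03 with *Mir195*. *Epx* and *Ccr3* were well above background on no array. Of the 3 tested, *Siglecf* and *Il5ra* were lower and *Prg2* higher on both *Mir195* arrays, and limma called 0. They are named after their values were seen, and 37.8% of all probes separated in either direction. The summed signal of 8 erythroid markers was 2.66 and 3.67 with EMPTY and 3.61 and 1.98 with *Mir195*. The part of these cells in the values of the family was not tested.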

How the data were processed

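RNA of 2 EMPTY and 2 *Mir195* samples was hybridised to single-dye Agilent mouse arrays, and the titles gave the groups. For each spot the authors deposited an intensity, background-subtracted by Agilent Feature Extraction (11.5.1.1 in the submitters' processing notes, 9.1.3.1 in the file headers), and a table of log2 values scaled to the 75th percentile. From the intensity, log2 values minus the 75th percentile of each array were computed, outlier spots were left out and spots of a probe averaged. Probes that both arrays of either virus showed well above background were tested by limma 3.58.1 (lmFit and eBayes, R 4.3.3, data.table, version 1.17.8), two-sided, with Benjamini-Hochberg adjustment over 23731 probes. Symbols came from accessions (GRCm38.p6) for 26055 probes and otherwise from the array. Each gene of a list was read from its brightest probe (highest mean). The method was tested on simulated data. The number of arrays limits the precision.

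The members and the 12 lists were chosen with earlier results of these data known. Named were every member, 17 fixed genes of the lists and the 5 closest profiles to the member of widest range; other names are marked, except list genes given for their detection alone, which were named after it was seen. Alternatives were normexp (offset 50), quantile normalization, median scaling, another percentile base, the deposited log2 table, looser and stricter filters, trended robust eBayes, the replicate block, each array left out, and the t-test of the methods. The crossed pairing was chosen after seeing the data. The same-numbered arrays deviated with r = -0.10, so the numbers were taken as pairs only in the replicate block and the t-test.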

Additional observations from a re-analysis of the deposited data

How the results depend on the processing

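Under the alternatives run, limma called no family member in any setting. Over all probes it called 3 with median scaling and 5 with the replicate block, against 0 as reported, and 0 to 904 when an array was left out, with 904 without *Mir195* replicate 1. The methods' t-test put 1134 probes and 2 members past its threshold unadjusted, and 0 after adjustment. With the crossed pairing as a block, chosen after seeing the data, 0 were called. The same-numbered arrays share only a number, and the replicate block called 0 members. Arrays of the viruses did not overlap for 2 members with normexp (49.9% of all probes), in place of 1, and for 2 without EMPTY replicate 1 (67.9%), 5 without EMPTY replicate 2 (64.5%), 7 without *Mir195* replicate 1 (78.3%) and 2 without *Mir195* replicate 2 (64.9%). A lone array against a pair separates more probes by construction.

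The median of the myeloid targets was 0.18 with normexp, -0.02 with median scaling and 0.00 to 0.12 with an array left out. For the partners it was -0.09 with median scaling and -0.01 to 0.10 with an array left out, and for the stress response -0.09 and -0.07 to -0.01. For the adipocyte genes it was 0.20 with normexp, -0.14 with median scaling, 0.06 with the looser and with the stricter filter and -0.12 to 0.03 with an array left out. Leaving out an array gave 0 to 1 called myeloid targets, 0 to 2 partners and 0 to 2 stress response genes. Median scaling lowered the median of all probes by 0.10 on the log2 scale.

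Signs turned, with no call, for *Cebpe* (0.20), *Trib2* (0.13) and *Fabp4* (0.19) with normexp, *Cebpa* (-0.03) and *Noc2l* (0.01) with quantile normalization, *Cebpa* (-0.07), *Cebpb* (-0.03), *Hspa5* (-0.05) and *Ncl* (-0.04) with median scaling, *Noc2l* (0.01) with the percentile over well measured probes, and *Cebpa* (-0.01) with the authors' table. With an array left out, the log2 fold change was -0.15 to 0.20 for *Cebpa*, -0.04 to 0.18 for *Cebpb*, -0.75 to 0.05 for *Cebpe*, -0.14 to 0.04 for *Cebpz*, -0.30 to 0.17 for *Trib1*, -0.91 to 0.53 for *Trib2*, -0.14 to 0.03 for *Trib3*, -0.19 to 0.00 for *Spi1*, -0.21 to 0.00 for *Elane*, -0.02 to 0.33 for *Asns*, -0.21 to 1.02 (called, without *Mir195* replicate 1) for *Ppp1r15a*, -0.11 to 0.09 for *Noc2l*, -0.01 to 0.13 for *Ncl* and -0.07 to 0.39 for *Pparg*. A virus with a single array left was assumed to vary like the other. The cause of these shifts was not tested. *Cebpe* was not tested under the stricter filter, as its signal on *Mir195* 2 was not well above background. At 1.9-fold to 2.39-fold over its local background, the *Cebpe* spot gives little signal to compare.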
